A study of Mus musculus with 10 samples.

Results

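Hepcidin and the genes of iron uptake, storage and export were followed in hepatocytes that had lost the transcription factors Nrf2, p65 or both. The set holds 10 of the 21939 genes in the deposited table, matched by Ensembl identifier to the symbols Hamp, Hamp2, Bmp6, Id1, Tfr2, Tfrc, Trf, Slc40a1, Fth1 and Ftl1. All 10 passed the filter on low counts. The cells came from 10 male mice on the C57BL/6J background, 8 to 9 weeks old, killed 12 days after injection of AAV8Cre, a virus that makes Cre recombinase under the hepatocyte-active thyroxine-binding globulin promoter. The control mice (n = 3) were wild-type C57BL/6J mice that also received AAV8Cre, so that every library came from a mouse with virus and Cre. The Nrf2 KO mice (n = 2) carried Nrf2 flox/flox alleles, the p65 KO mice (n = 2) p65 flox/flox alleles, and the DKO mice (n = 3) both. The controls carried no floxed allele, so the line of origin and the deletion cannot be told apart in the comparisons with control.

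Hepcidin, the product of Hamp, is the liver hormone that binds the iron exporter ferroportin (Slc40a1) and causes its removal from the cell surface. Its transcription is raised by the bone morphogenetic proteins Bmp6 and Bmp2, which are made by sinusoidal endothelial cells and act through SMAD proteins, and by interleukin 6 acting through STAT3. Inside the cell, iron is stored in ferritin, a shell of heavy chains (Fth1) and light chains (Ftl1), and both ferritin genes are known targets of Nrf2. When iron is scarce, iron regulatory proteins bind hairpins called iron-responsive elements in ferritin, ferroportin and transferrin receptor messages and thereby alter their translation or decay.

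The ferritin genes were the genes of the set that passed the test, and the sequence elements through which iron and Nrf2 are known to act on such genes are printed first. An iron-responsive element was searched for in the untranslated regions of the canonical GENCODE M39 transcripts (GRCm39), as the loop CAGTGN enclosed by 5 paired bases on each side and preceded by a C. The pattern stood in the 5′ untranslated region of 23 of 21923 transcripts (0.105%), among them Fth1, Ftl1 and Slc40a1. It stood in the 3′ untranslated region of 125 transcripts (0.57%), among them Tfrc with 4 copies. The elements are given 5′ to 3′ on the strand of the gene, with the loop in capitals.

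Fth1, 5′, chr19:9960097-9960123, plus strand: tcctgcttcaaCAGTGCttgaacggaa

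Ftl1, 5′, chr7:45109204-45109230, minus strand: tcttgcttcaaCAGTGTttgaacggaa

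Slc40a1, 5′, chr1:45964626-45964652, minus strand: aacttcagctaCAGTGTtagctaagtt

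Tfrc, 3′, chr16:32450038-32450064, plus strand: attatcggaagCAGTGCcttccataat

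Tfrc, 3′, chr16:32450417-32450443, plus strand: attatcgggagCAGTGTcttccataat

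Tfrc, 3′, chr16:32450482-32450508, plus strand: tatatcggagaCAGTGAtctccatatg

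Tfrc, 3′, chr16:32450529-32450555, plus strand: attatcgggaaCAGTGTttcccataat

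The antioxidant response element, the motif bound by Nrf2, was searched for as TGACTCAGC on either strand in the 5000 bases before each transcript start. It was found for 1549 of 21923 genes (7.07%) and for 2 of the 10 iron genes, Ftl1 and Fth1. For Ftl1 it lay 1103 bases before the start on the strand of the gene, and for Fth1 4006 bases before the start on the other strand, so that the plus strand printed here reads its reverse complement. Each is shown with its flanks and the motif in capitals. A match of letters describes the sequence and does not show a bound site.

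Ftl1, chr7:45110395-45110419, minus strand: gctcagcgTGACTCAGCagaactgg

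Fth1, chr19:9955996-9956020, plus strand: agcagaatGCTGAGTCAcggtggaa

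Total estimated counts per library ranged from 33707165 to 49897382. A gene passed the test where its adjusted P in edgeR's quasi-likelihood test was at most 0.05, all 10 libraries shared 1 fit, and the 3 comparisons with control share the same control libraries. Normalized counts are counts divided by the library's relative size, and errors are SD for levels and SE for log2 fold changes. This SE is not given by edgeR. It was derived as the size of the log2 fold change divided by the square root of the test's F statistic. The targeted genes do not check the genotypes here, because deletion of exons can leave a message that the table counts as a whole: Nfe2l2, which encodes Nrf2, had 2100 ± 189 normalized counts in control (n = 3) and 4872 ± 188 in Nrf2 KO (n = 2), and Rela, which encodes p65, had 1256 ± 29.9 in control (n = 3) and 1196 ± 18.6 in p65 KO (n = 2). The hepatocyte label was met by the 10 hepatocyte markers, which summed to between 3534730 and 5566820 normalized counts per library. Markers of other liver cells differed by genotype. The 12 Kupffer cell markers summed to 379 to 957 normalized counts in control, 264 to 815 in Nrf2 KO, 4470 to 6083 in p65 KO and 1661 to 2924 in DKO. The 12 sinusoidal endothelial markers summed to 1037 to 2212, 1338 to 2607, 5539 to 7683 and 2814 to 4253 in the same order, and the 10 stellate cell markers to 261 to 503, 211 to 417, 2612 to 2726 and 478 to 1261. Compared with control, all 12 Kupffer, all 12 endothelial and 8 of 10 stellate markers were higher in p65 KO with an adjusted P of at most 0.05, and 5, 2 and 1 in DKO. Of all genes tested, 8.13% were higher in p65 KO and 2.61% in DKO.

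Per kilobase of canonical transcript, a scale on which levels of different genes can be set side by side, control hepatocytes held most Trf, with a mean of 209269 normalized counts per kilobase. Trf encodes transferrin, the plasma iron carrier that the liver secretes. Ftl1 followed with 120759, Fth1 with 48881 and Hamp with 40384. Tfr2, the iron-sensing transferrin receptor of hepatocytes, stood at 3194, Hamp2 at 1797 and Slc40a1 at 1267. Id1, a SMAD target, stood at 224, Tfrc, the receptor that takes up transferrin iron, at 124, and Bmp6 at 8.25.

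**Figure D1:**
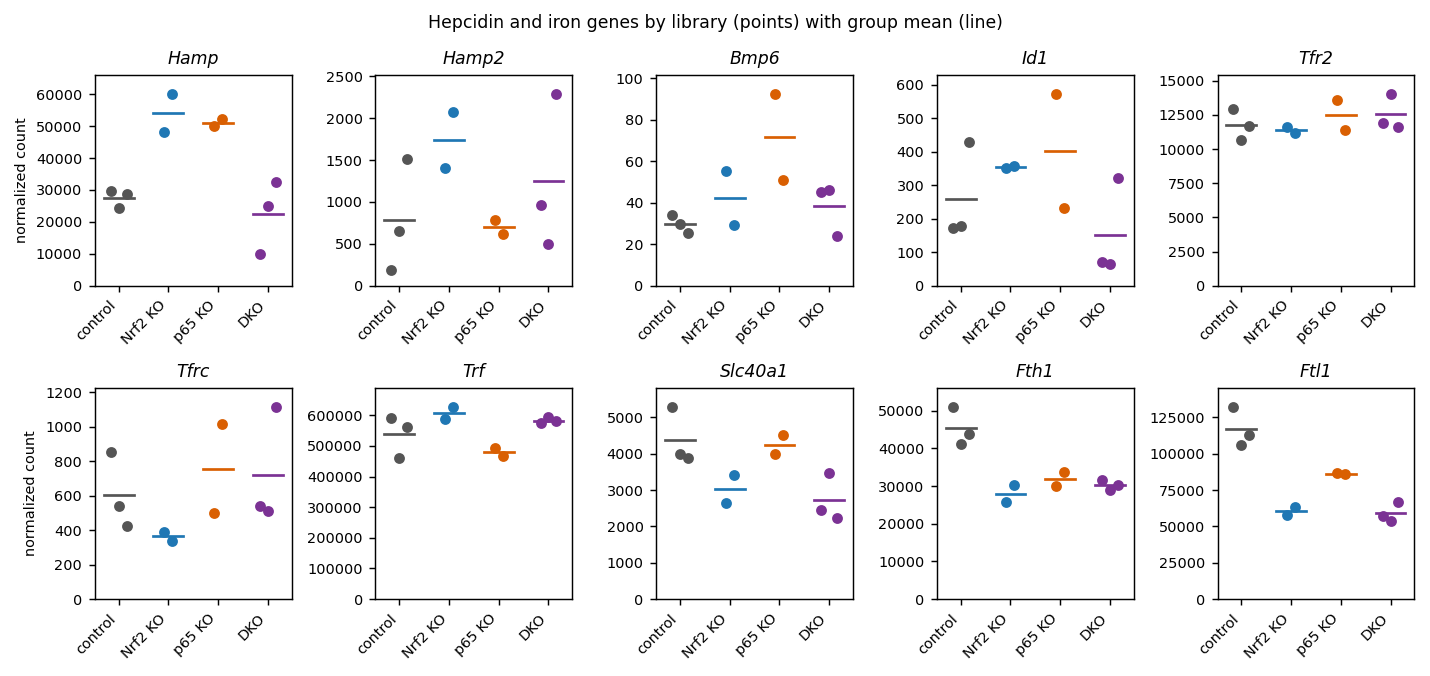
Normalized counts of the 10 genes (y axis, from 0, scaled per gene) in each of the 10 libraries (points) of the 4 genotypes (x axis), with the group mean as a line. All 7 knockout libraries lie below the 3 control libraries for Fth1 and Ftl1, and Hamp lies above control in all 4 libraries with 1 deletion but in only 1 of the 3 DKO libraries.

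Ferritin heavy chain mRNA fell in all 3 knockout genotypes, and light chain mRNA fell in Nrf2 KO and DKO. The light chain was also below control in p65 KO, a difference that did not pass in edgeR. In Nrf2 KO, 2 of the 10 genes passed the test, Fth1 and Ftl1, both lower, where 0.726% of the 13641 genes tested passed in either direction and 0.594% were lower. In p65 KO, 1 passed, Fth1, against 14.9% of all genes tested, a share above that of the 10 genes. In DKO, 2 passed, again Fth1 and Ftl1 and again lower, against 5.45%. No gene of the set passed as higher than control in edgeR in any of the 3 comparisons, where Hamp in Nrf2 KO and Hamp and Bmp6 in p65 KO had an unadjusted P under 0.05 (these last 2 passed in DESeq2).

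Fth1 (ENSMUSG00000024661, chr19:9960010-9962462), the ferritin heavy chain with the ferroxidase site, had 50997, 41304 and 43930 normalized counts in the 3 control libraries. The values were 25827 and 30158 in Nrf2 KO, 30079.5 and 33820.4 in p65 KO, and 31590.3, 29017 and 30161 in DKO. The highest knockout library was thus below the lowest control library, and the 3 knockout genotypes overlapped with each other. The log2 fold change was -0.70 ± 0.136 in Nrf2 KO (edgeR adjusted P = 0.0491), -0.51 ± 0.136 in p65 KO (adjusted P = 0.0316) and -0.59 ± 0.120 in DKO (adjusted P = 0.0214). The Nrf2 KO call was close to the threshold and was lost when any 1 of the 10 libraries was left out, with adjusted P between 0.058 and 0.414 and log2 fold changes between -0.81 and -0.59. The p65 KO call was lost without control replicate 1 or 3 or p65 KO replicate 1 or 2 (adjusted P = 0.097, 0.0591, 0.209 and 0.0647). The DKO call was lost without control replicate 1 or DKO replicate 1 or 2 (adjusted P = 0.0812, 0.0501 and 0.058). With only the genotypes compared in the fit, none of the 3 calls passed (adjusted P = 0.0868, 0.0627 and 0.051 for Nrf2 KO, p65 KO and DKO).

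Ftl1 (ENSMUSG00000050708, chr7:45107367-45109308), the light chain that favors mineral formation inside the shell, had 132175, 106206 and 112664 normalized counts in control. It had 57803 and 63566 in Nrf2 KO, 86702 and 85805 in p65 KO, and 57109, 53427 and 67061 in DKO. The Nrf2 KO and DKO libraries overlapped and all lay below the p65 KO libraries, which in turn lay below control. The log2 fold change was -0.95 ± 0.150 in Nrf2 KO (edgeR adjusted P = 0.0175), corresponding to a level of 0.519 of control, and -0.98 ± 0.131 in DKO (adjusted P = 0.00292), a level of 0.506 of control. In p65 KO it was -0.44 ± 0.147, which did not pass in edgeR (adjusted P = 0.0666) and passed in DESeq2 (adjusted P = 0.0201). Without Nrf2 KO replicate 1 or 2, or without control replicate 1, the Nrf2 KO call was lost (adjusted P = 0.199, 0.215 and 0.059), whereas the DKO call was kept under each left-out library with adjusted P of at most 0.0142.

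In Nrf2 KO and DKO the light chain log2 fold change was further from 0 than that of the heavy chain. The ratio of Ftl1 to Fth1 normalized counts lay between 2.56 and 2.59 in control, 2.11 and 2.24 in Nrf2 KO, 2.54 and 2.88 in p65 KO, and 1.81 and 2.22 in DKO. All 5 libraries without Nrf2 were below all 5 libraries with it. No test was run on this ratio, which was not among the planned comparisons. Between the knockouts themselves, the log2 fold change of Ftl1 was -0.54 ± 0.144 in DKO against p65 KO (edgeR adjusted P = 0.0604) and 0.51 ± 0.159 in p65 KO against Nrf2 KO (adjusted P = 0.0664), with no overlap of libraries in either comparison and neither past the threshold. The DKO difference from p65 KO passed without DKO replicate 3 (-0.64, edgeR adjusted P = 0.0482), with scaling to equal totals (adjusted P = 0.00541) and in DESeq2 (adjusted P = 0.00274). The p65 KO difference from Nrf2 KO passed in 2 of 20 alternatives. Between DKO and Nrf2 KO the Ftl1 difference was -0.04 ± 0.145 (adjusted P = 0.940). Ftl1 shares 77.1% of its 31-base words with the copy Ftl1-ps1, which held between 0.206% and 0.724% of their summed counts, and for the summed counts the log2 fold change was -0.95 in Nrf2 KO and -0.99 in DKO.

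**Figure D2:**
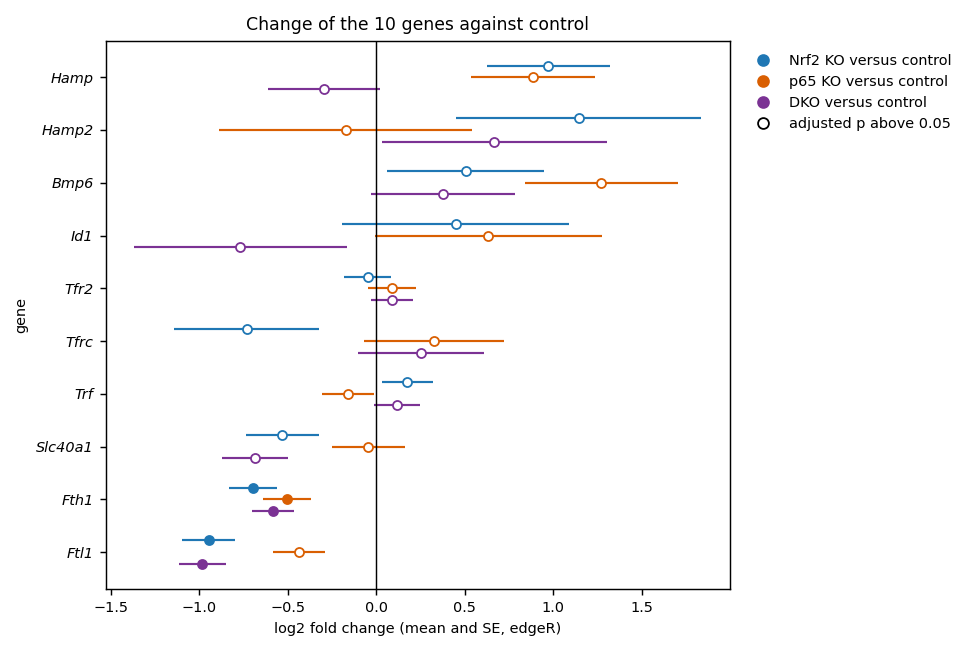
Log2 fold change against control (x axis, edgeR estimate with the SE derived from its F statistic) of each of the 10 genes (y axis) in Nrf2 KO, p65 KO and DKO. Filled points have an adjusted P of at most 0.05, and they are Fth1 in all 3 comparisons and Ftl1 in Nrf2 KO and DKO.

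Hepcidin mRNA counts lay above control in both groups of mice with 1 deletion and not in mice with both deletions, but no Hamp difference passed the test over all genes. Hamp (ENSMUSG00000050440, chr7:30641766-30643704) had 29819.5, 24305 and 28744 normalized counts in control. It had 48249.5 and 60139.8 in Nrf2 KO and 49896 and 52073 in p65 KO. In DKO it had 10065, 24945 and 32509. The 4 libraries with 1 deletion lay above all control and all DKO libraries and overlapped with each other, whereas DKO spanned the control range and had the widest spread, with an SD of 11419 around a mean of 22506 (n = 3).

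Against control, the Hamp log2 fold change was 0.97 ± 0.349 in Nrf2 KO (unadjusted P = 0.018, edgeR adjusted P = 0.368), 0.88 ± 0.349 in p65 KO (adjusted P = 0.111) and -0.30 ± 0.317 in DKO (adjusted P = 0.618). DKO differed from Nrf2 KO by -1.27 ± 0.349 (adjusted P = 0.149) and from p65 KO by -1.18 ± 0.349 (adjusted P = 0.0836). The last of these passed without DKO replicate 3 (-1.53, adjusted P = 0.0394). The distance of DKO replicate 1, the library with the lowest Hamp count, from the other DKO libraries enters the spread that all comparisons share. Without this library, the adjusted P fell to 0.0285 in Nrf2 KO and 0.00947 in p65 KO at nearly the same fold changes (0.97 and 0.88), and the DKO difference from control was 0.06 (adjusted P = 0.868). With only the genotypes compared in the fit, the adjusted P was 0.0324 in Nrf2 KO and 0.00697 in p65 KO, and 0.198 for DKO against p65 KO.

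The interaction asks whether the change on losing p65 differed between mice with and without Nrf2. For Hamp it was -2.15 ± 0.494 on the log2 scale, with an unadjusted P of 0.00118 and an adjusted P of 0.0983, where 0.469% of all genes tested passed. It passed without DKO replicate 1 (-1.79, adjusted P = 0.0161), without DKO replicate 3 (-2.50, adjusted P = 0.0408) and in DESeq2 (adjusted P = 0.000754). In all it passed in 5 of 19 alternatives, and with 1 library left out its adjusted P in edgeR reached 0.339 (without Nrf2 KO replicate 2). It kept its sign in all 19. None of the 10 genes passed for the interaction in edgeR, 3 had an unadjusted P under 0.05 (Hamp, Fth1 and Bmp6), and 2 passed in DESeq2 (Hamp and Fth1). Over all genes tested, 1888 of 13641 had an unadjusted P under 0.05. For Fth1 the interaction was 0.62 ± 0.191 (edgeR adjusted P = 0.206), the DKO value lying less far below control than the sum of the differences in the mice with 1 deletion.

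**Figure D3:**
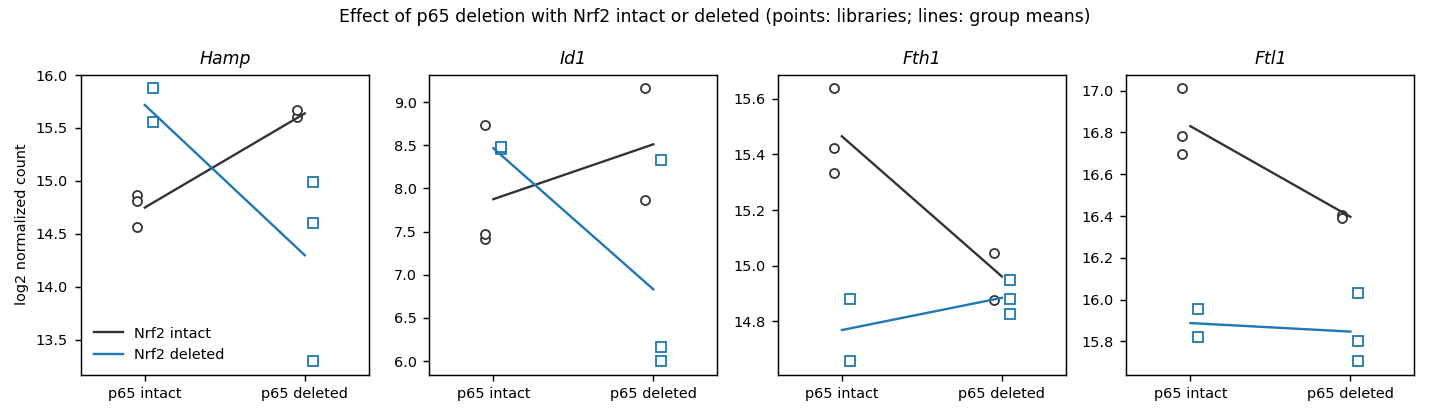
Log2 normalized count (y axis, a separate range per gene) of Hamp, Id1, Fth1 and Ftl1 in libraries with p65 intact or deleted (x axis), for mice with Nrf2 intact (black circles) or deleted (blue squares). Points are libraries and lines join the group means. The Hamp lines cross, with an interaction of -2.15 on the log2 scale, and the Ftl1 line without Nrf2 is nearly flat.

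Hamp2, the second mouse hepcidin gene, varied widely within groups. It had 191, 651 and 1514 normalized counts in control, 1403 and 2072.5 in Nrf2 KO, 782 and 614 in p65 KO, and 960.4, 499 and 2291 in DKO. Each knockout genotype overlapped with control, and its log2 fold changes against control lay between -0.17 ± 0.714 in p65 KO and 1.14 ± 0.694 in Nrf2 KO, none past the test. Hamp2 held between 0.637% and 8.71% of the summed Hamp and Hamp2 counts. Of the 31-base words of Hamp, 19.6% also occur in Hamp2, so reads can be split between the genes, and on the summed counts the log2 fold changes of Nrf2 KO, p65 KO and DKO were 0.98, 0.86 and -0.26.

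Upstream of hepcidin, the ligand gene Bmp6 was low in these preparations. It had 34.2, 29.5 and 25.2 normalized counts in control, 55.4 and 29.1 in Nrf2 KO, 92.4 and 51.0 in p65 KO, and 45.2, 46.0 and 24.0 in DKO. Both p65 KO libraries lay above every library of control, and the DKO libraries lay on both sides of the control range. The p65 KO log2 fold change was 1.27 ± 0.434 (edgeR adjusted P = 0.0715). It fell to 0.78 without p65 KO replicate 1. Bmp6 is an endothelial gene in liver, and the sum of the endothelial markers was also highest in p65 KO. Per 1000 endothelial marker counts, Bmp6 had 11.4 to 33.01 normalized counts in control, 21.2 to 21.8 in Nrf2 KO, 9.22 to 12.0 in p65 KO and 8.54 to 13.0 in DKO, so that the p65 KO values were not above control on this scale. In such preparations a difference in the number of endothelial cells and one in the RNA of each cell cannot be told apart, and the part of the markers in the Bmp6 difference was not tested.

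Id1, a direct target of SMAD signaling, had 171, 177 and 428 normalized counts in control and 351 and 356 in Nrf2 KO. It had 573 and 233 in p65 KO, and 71.5, 64.0 and 323 in DKO. Of the 3 DKO libraries, 2 held the lowest Id1 counts of the 10 libraries, and the remaining one lay within the control range. The log2 fold change in DKO was -0.77 ± 0.599 against control (edgeR adjusted P = 0.477) and -1.40 ± 0.649 against p65 KO (adjusted P = 0.230), and the interaction was -1.85 ± 0.911 (adjusted P = 0.396). Without DKO replicate 3, the DKO difference from p65 KO was -2.57 (adjusted P = 0.0332).

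Ferroportin, the only known cellular iron exporter, was lowest in the genotypes without Nrf2. Slc40a1 (ENSMUSG00000025993, chr1:45947211-45964818) had 5284, 3982 and 3894 normalized counts in control, 2647 and 3422 in Nrf2 KO, 3987.5 and 4515 in p65 KO, and 2463, 3482 and 2232 in DKO. All 5 libraries without Nrf2 lay below all 5 libraries with it. How many of all genes separate in this way was not counted. The log2 fold change was -0.69 ± 0.184 in DKO (edgeR adjusted P = 0.0561), just above the threshold, -0.53 ± 0.207 in Nrf2 KO (adjusted P = 0.434) and -0.04 ± 0.204 in p65 KO (adjusted P = 0.904). The DKO difference passed without DKO replicate 2 (-0.90, adjusted P = 0.0195) and in DESeq2 (adjusted P = 0.00828). Against p65 KO, the DKO difference was -0.64 ± 0.202 (edgeR adjusted P = 0.102). It passed without DKO replicate 2 (-0.86, adjusted P = 0.03), with scaling to equal totals (adjusted P = 0.0207) and in DESeq2 (adjusted P = 0.0332). Kupffer cells also express ferroportin. The Slc40a1 level of p65 KO lay within the control range while its Kupffer marker sum was at least 4470, against at most 957 in control. Hepatocyte and Kupffer cell RNA cannot be told apart in these libraries, and the part of Kupffer cells in the Slc40a1 values was not tested.

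**Figure D4:**
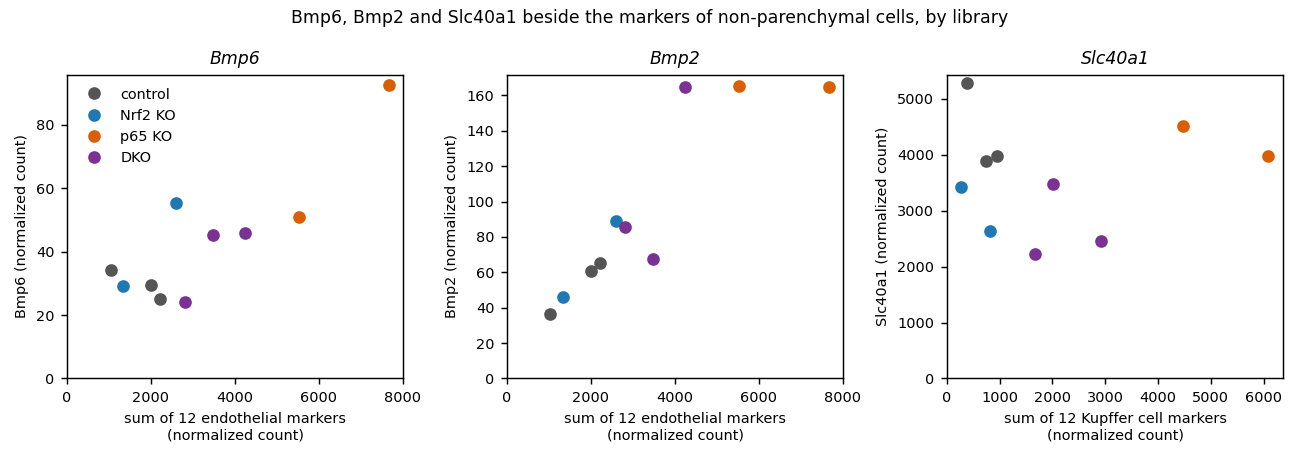
Normalized counts of Bmp6, Bmp2 and Slc40a1 (y axes, from 0) against the summed normalized counts of 12 endothelial or 12 Kupffer cell markers (x axes, from 0), with 1 point per library colored by genotype. The p65 KO libraries have the highest marker sums, and Slc40a1 is not higher in them than in control. The part of endothelial and Kupffer cells in the levels of these genes was not tested.

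Tfrc and Tfr2 are the transferrin receptors and Trf their ligand. Tfrc had 853, 541 and 422 normalized counts in control and 392 and 336 in Nrf2 KO, with no overlap. It had 499 and 1016 in p65 KO and 539, 511 and 1114.5 in DKO. The log2 fold change was -0.73 ± 0.409 in Nrf2 KO (edgeR adjusted P = 0.659), and DKO was 0.99 ± 0.412 above Nrf2 KO (adjusted P = 0.310). Tfr2 overlapped with control in each knockout genotype, with 10678 to 12958 normalized counts in control, 11150 to 11616.5 in Nrf2 KO, 11416 to 13620.5 in p65 KO and 11644 to 14053 in DKO. Its log2 fold changes against control lay between -0.05 ± 0.135 and 0.09 ± 0.121. Trf had 461059 to 592069 normalized counts in control, 586917 to 626860 in Nrf2 KO, 468222 to 494198 in p65 KO and 573114 to 592814 in DKO, and its largest log2 fold change against control was 0.17 ± 0.144 in Nrf2 KO (adjusted P = 0.806).

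Counted by overlap, 5 of the 10 genes in Nrf2 KO had all libraries above or below control (Hamp higher, and Fth1, Ftl1, Slc40a1 and Tfrc lower), against 28.5% of all genes tested. In p65 KO there were 4 (Hamp and Bmp6 higher, Fth1 and Ftl1 lower), against 50% of all genes. In DKO there were 3 (Fth1, Ftl1 and Slc40a1, all lower), against 26.5%. In the order Nrf2 KO, p65 KO, DKO, the median log2 fold change was 0.06, 0.02 and -0.10 over the 10 genes and 0.00, 0.00 and 0.02 over all genes tested. Between the knockouts, none of the 10 genes passed in edgeR. Of all genes, 4.11% passed in DKO against p65 KO, 0.513% in DKO against Nrf2 KO and 10.4% in p65 KO against Nrf2 KO. In the same order, 3, 2 and 2 of the 10 genes had an unadjusted P under 0.05. Over the 13641 genes tested, 3066, 1961 and 3896 did. In DESeq2, 3, 1 and 1 of the 10 genes passed.

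The wider iron pathway was described with 78 genes in 6 lists, of which 73 passed the filter. In Nrf2 KO none passed in edgeR, 12 had an unadjusted P under 0.05 (1279 of 13641 over all genes tested), and 4 passed in DESeq2. In p65 KO 12 rose and 3 fell, whereas 8.13% of all genes tested rose and 6.77% fell. In DKO 3 rose and 5 fell, against 2.61% and 2.84% of all genes. The 73 genes had median log2 fold changes of 0.02, 0.04 and -0.03 in Nrf2 KO, p65 KO and DKO. The p65 KO and DKO values of all 6 lists stand beside the higher Kupffer, endothelial and stellate marker sums of these genotypes, whose part in them was not tested. Of the 15 p65 KO calls, those of Lcn2, Slc39a14, Steap4, Hmox1 and Cd163 were kept whichever library was left out, while 9 were lost without p65 KO replicate 1 (among them Bmp2, Cebpa, Hjv, Il6ra, Scara5, Slc11a1, Smad5 and Socs3) and that of Steap3 without p65 KO replicate 2. Of the 8 DKO calls, those of Lcn2 and Blvrb were kept, and 6 were lost without control replicate 1 and again without control replicate 2 (among them Cd163, Hfe, Hjv, Id2 and Slc39a14).

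Among 21 tested genes of BMP and SMAD signaling, 2 rose and 1 fell in p65 KO, and 3 fell in DKO. Of all genes tested, 8.13% rose and 6.77% fell in p65 KO, and 2.84% fell in DKO. Hjv, the hemojuvelin co-receptor that hepatocytes need for hepcidin expression, fell in p65 KO (-0.76 ± 0.150 on the log2 scale, edgeR adjusted P = 0.00978) and in DKO (-0.63 ± 0.132, adjusted P = 0.0221). It had 2523, 2687 and 2208 normalized counts in control, 1327 and 1587 in p65 KO, and 1763, 1312 and 1703 in DKO, without overlap. Hfe, the hemochromatosis protein that works with Tfr2, fell in DKO (-0.71 ± 0.168, adjusted P = 0.0352) and had a log2 fold change of -0.73 ± 0.190 in Nrf2 KO that did not pass (adjusted P = 0.173). Id2, like Id1 an inhibitor of helix-loop-helix factors, fell in DKO (-1.02 ± 0.201, adjusted P = 0.0187), with 3865, 2418 and 3593 normalized counts against 7005, 7127 and 5876 in control. Smad5, a signal carrier of the BMP receptors, rose in p65 KO by 0.41 ± 0.123 (adjusted P = 0.0454). This call passed in 7 of 19 alternatives, and among the fits with 1 library left out it was kept only without control replicate 2.

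Bmp2, the other endothelial ligand for hepcidin induction, rose in p65 KO (1.60 ± 0.411, edgeR adjusted P = 0.0274). It had 165 normalized counts in both p65 KO libraries, 36.4, 61.0 and 65.4 in control, and 67.3, 165 and 85.8 in DKO. Per 1000 endothelial marker counts it had 29.5 to 35.1 in control and 21.4 to 29.9 in p65 KO. On this scale the p65 KO libraries were not above control. As for Bmp6, the number of endothelial cells and the RNA of each cell cannot be told apart, and the part of the markers in the Bmp2 difference was not tested.

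Of 11 tested genes of interleukin 6 and STAT3 signaling, 3 rose in p65 KO, where 8.13% of all genes tested rose. None passed in DKO in edgeR, where 4 had an unadjusted P under 0.05 (3073 of 13641 over all genes tested). In DESeq2, 1 passed in DKO. Socs3, the feedback inhibitor induced by STAT3, had 3963 and 807 normalized counts in p65 KO, between 212 and 352 in control and between 158 and 270 in DKO. Its log2 fold change was 3.16 ± 0.784 in p65 KO (edgeR adjusted P = 0.0241), which fell to 1.60 without p65 KO replicate 1, and the log2 fold change of DKO against p65 KO was -3.56 ± 0.8004 (adjusted P = 0.0364). In Nrf2 KO the libraries held 84.0 and 919 Socs3 counts. Il6ra, the interleukin 6 receptor chain, rose in p65 KO by 1.42 ± 0.357 (adjusted P = 0.0254). Cebpa, a hepatocyte transcription factor that also acts on the hepcidin promoter, rose in p65 KO by 0.71 ± 0.182 (adjusted P = 0.0277) and was lower in DKO than in p65 KO (-0.79 ± 0.182, adjusted P = 0.0395).

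Of 13 tested genes of iron uptake, reduction, oxidation and export, 5 rose and 1 fell in p65 KO, and 2 rose in DKO. The shares over all genes tested were 8.13% and 6.77% in p65 KO, and 2.61% rose in DKO. Slc39a14, which carries non-transferrin-bound iron into hepatocytes, had 3734, 4449 and 4835 normalized counts in control, 10002 and 9572.5 in p65 KO, and 5407, 7707 and 6870.1 in DKO. It rose by 1.17 ± 0.157 on the log2 scale in p65 KO (edgeR adjusted P = 0.00198) and by 0.62 ± 0.143 in DKO (adjusted P = 0.0325). All 5 libraries without p65 lay above control, and so did both Nrf2 KO libraries, with 4978 and 5647. The Nrf2 KO log2 fold change of 0.29 did not pass (adjusted P = 0.646). Lcn2, the siderophore-binding protein lipocalin 2, had 19.7 to 47.5 normalized counts in control, 185 and 222 in p65 KO, and 344, 266 and 245 in DKO. It rose by 2.67 ± 0.415 in p65 KO (adjusted P = 0.00361) and 3.16 ± 0.394 in DKO (adjusted P = 0.00189), and it was 2.88 ± 0.449 higher in DKO than in Nrf2 KO (adjusted P = 0.0184).

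The metalloreductases moved apart. Steap4 rose in p65 KO (1.26 ± 0.203, edgeR adjusted P = 0.00416), and Steap3, which reduces iron released from transferrin in endosomes, fell (-0.97 ± 0.181, adjusted P = 0.00795). Slc11a1, the metal transporter of macrophage phagosomes, rose by 1.90 ± 0.442 (adjusted P = 0.0193), beside the rise of all 12 Kupffer markers. Scara5, a ferritin receptor, rose by 1.94 ± 0.559 (adjusted P = 0.0409) and had 35.6 and 9.70 normalized counts in Nrf2 KO against 43.3 to 204 in control.

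None of 9 genes of iron sensing and hypoxia passed in edgeR against control. An unadjusted P under 0.05 was seen for 0, 2 and 3 of them in Nrf2 KO, p65 KO and DKO. Over the 13641 genes tested it was seen for 1279, 4313 and 3073. In DESeq2, 0, 1 and 1 of the 9 passed in the same order. Of 9 genes of heme and hemoglobin salvage, 2 rose in p65 KO, and 1 rose and 1 fell in DKO. Over all genes tested, 8.13% rose in p65 KO, and 2.61% rose and 2.84% fell in DKO. Hmox1, the heme oxygenase that frees iron from heme, had 181 to 219 normalized counts in control, 680 and 438 in p65 KO, and 212 to 262 in DKO. It rose by 1.44 ± 0.192 in p65 KO (adjusted P = 0.00198) and was lower in DKO than in p65 KO (-1.21 ± 0.192, adjusted P = 0.0102).

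Cd163, the hemoglobin scavenger receptor of macrophages, rose by 3.42 ± 0.551 in p65 KO (edgeR adjusted P = 0.00416) and by 2.18 ± 0.518 in DKO (adjusted P = 0.0357), beside the higher Kupffer marker sums. Blvrb, which reduces biliverdin and flavins, fell in DKO (-0.90 ± 0.148, adjusted P = 0.00816). Its log2 fold changes in Nrf2 KO (-0.49 ± 0.165, adjusted P = 0.333) and p65 KO (-0.49 ± 0.166, adjusted P = 0.0673) did not pass, although neither overlapped with control.

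**Figure D5:**
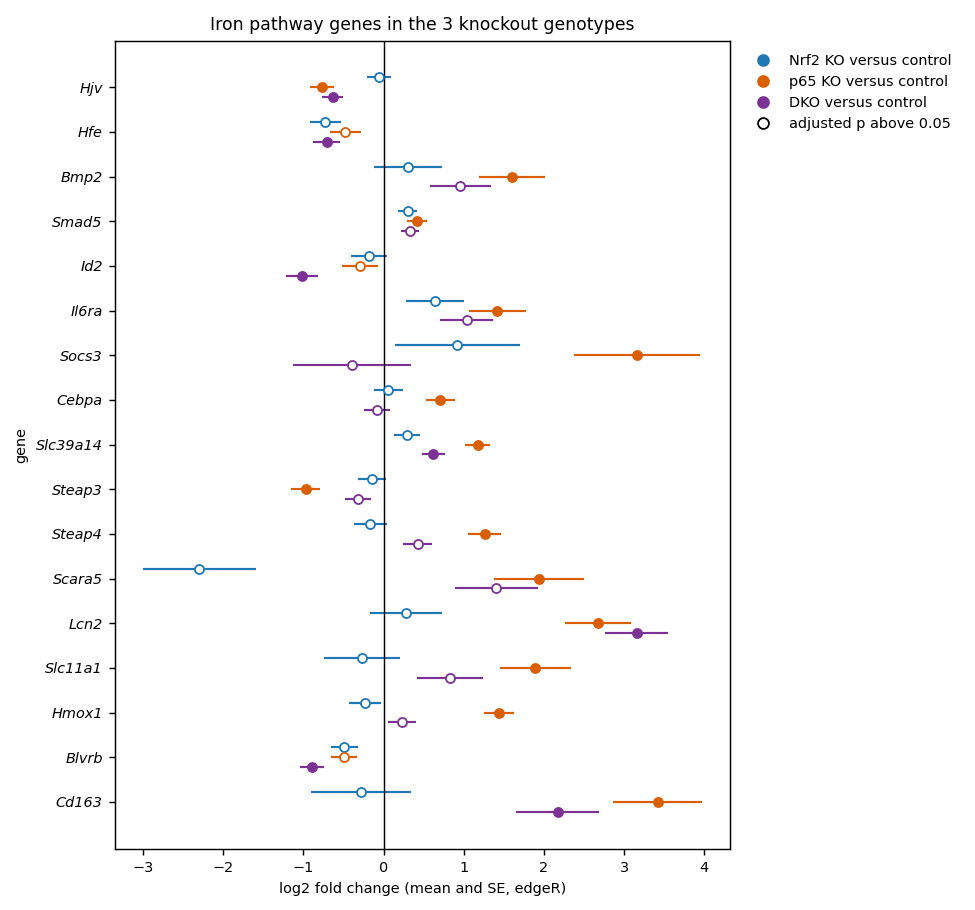
Log2 fold change against control (x axis, edgeR estimate with the SE derived from its F statistic) of the iron pathway genes described in the text (y axis), each of which passed the test in p65 KO or DKO. Filled points have an adjusted P of at most 0.05, and none of these genes is filled in Nrf2 KO.

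Across the 10 libraries, the genes whose log2 level followed Hamp most closely were Cep68, Sgms1 and Vps26b, with Pearson r of 0.94, 0.94 and 0.92. For Bmp6 they were Zfp263, Socs7 and Tango6, with r of 0.94, 0.93 and 0.92. For Slc40a1 they were Ero1b, Srd5a3 and Ireb2, with r of 0.93, 0.93 and 0.92. Ireb2 encodes iron regulatory protein 2, which binds the hairpin printed for Slc40a1, and had 3259 to 3411 normalized counts in control, 2797 to 2965 in Nrf2 KO, 3045 to 3396 in p65 KO and 2455 to 2949.9 in DKO. These genes were picked as the most similar of all genes that averaged 50 normalized counts or more, so the correlations describe the 10 libraries and were not tested.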

How the data were processed

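Hepatocytes were isolated by Liberase perfusion, low-speed centrifugation and Percoll. Poly-A libraries were sequenced as single-end reads. The authors quantified them with Salmon 1.10.3 (GRCm39, GENCODE M33). The deposited values, labelled normalized, are whole numbers whose library totals differ (33707165 to 49897382), and they were used as estimated counts. No column was left without a sample. The study's own test was DESeq2 1.42.1.

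Here the estimated counts were fitted with edgeR 4.0.16 (R 4.3.3), with TMM normalization, at least 10 counts summed over the libraries (13641 of 21939 genes) and genotype as the only term. P was adjusted by Benjamini-Hochberg over all genes tested within a comparison. Alternatives were other scalings and filters, DESeq2 1.42.0, limma 3.58.1 on log2 values with a pseudocount of 0.5, a fit of only the genotypes compared, a replicate block, leaving out each library, and sums with Hamp2 or Ftl1-ps1. Gene models and sequences were those of GENCODE M39 (GRCm39), where 21926 identifiers matched. The members and all lists were chosen with earlier results of these data known. Named were all 10 members, list genes with an adjusted P of at most 0.05 against control, up to 6 a list, and the 3 genes most like Hamp, Bmp6 and Slc40a1. Figures were drawn with matplotlib 3.10.9.

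The remaining marker lists were summed in the same way. Cholangiocyte markers summed to 151 to 444 normalized counts per library, neutrophil markers to 2.80 to 50.8 (Ly6g at 0 in every library), monocyte and dendritic cell markers to 2.21 to 75.2, T and NK cell markers to 14.0 to 157, and B cell markers to 53.8 to 455. Erythroid markers summed to 3199 to 5655, most of it Alas2, so this sum does not measure globin RNA. The list of iron storage, chaperones and mitochondrial iron entered the totals over all lists and is not reported here on its own.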

Additional observations from a re-analysis of the deposited data

How the results depend on the processing

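Of the 10 genes, Ftl1 in DKO passed in all 20 alternatives, Ftl1 in Nrf2 KO in 16 of 20, and Fth1 in 6, 12 and 14 of 19 in Nrf2 KO, p65 KO and DKO, always with the same sign. The number of the 10 genes that passed in Nrf2 KO, 2 in the main analysis, was 1 with upper-quartile scaling and 0 to 2 with 1 library left out. In p65 KO it was 1, and became 0 with scaling to equal totals, 4 with DESeq2 and 0 to 2 with 1 library left out. In DKO it was 2, and became 3 with equal totals, no filter or DESeq2, 1 with only the genotypes compared and 1 to 2 with 1 library left out. Between DKO and p65 KO it was 0, and became 3 with equal totals, 1 with no filter, 3 with DESeq2 and 0 to 3 with 1 library left out. Between DKO and Nrf2 KO it became 1 with DESeq2. Between p65 KO and Nrf2 KO it became 1 with equal totals, 1 with DESeq2 and 1 with only the genotypes compared. For the interaction it became 1 with equal totals, 1 with no filter, 2 with DESeq2 and 0 to 1 with 1 library left out. The number of iron pathway genes that passed in Nrf2 KO, 0 in the main analysis, was 1 with no filter, 4 with DESeq2, 1 with only the genotypes compared and 0 to 2 with 1 library left out. In p65 KO it was 15, and 7 to 18 with 1 library left out. In DKO it was 8, and became 14 with DESeq2 and 2 to 9 with 1 library left out. The Id1 log2 fold change in p65 KO changed sign to -0.16 without p65 KO replicate 1 and ranged up to 1.21 with 1 library left out. The cause was not tested in any of these.

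Scaling to equal totals moved the median log2 fold change of all genes by 0.18 in p65 KO against control, -0.27 in DKO against p65 KO, 0.17 in p65 KO against Nrf2 KO and -0.27 in the interaction. Under this scaling Fth1 in p65 KO was -0.33 before allowing for the shift.

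With the replicate number of the labels as a block, 0, 1 and 1 of the 10 genes passed in Nrf2 KO, p65 KO and DKO, 1 in DKO against p65 KO and 1 in the interaction. The DKO gene was Ftl1 and the other 3 were Id1, while Fth1 had an edgeR adjusted P of 0.153, 0.0806 and 0.0562 for Nrf2 KO, p65 KO and DKO. The 13 same-numbered pairs had correlations of their deviations from the group means between -0.232 and 0.113, 1 of them over 0.1. Of the 10 libraries, 2 correlated best with their own number. In a group of 2 mice the 2 deviations mirror each other, so these values cannot decide whether the numbers pair the mice.

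With 2 or 3 mice per genotype and P adjusted over 13641 genes, differences of several times the printed SE could fail the test. Examples are Hamp in Nrf2 KO (0.97 ± 0.349, edgeR unadjusted P = 0.018, adjusted P = 0.368) and Slc40a1 in DKO (-0.69 ± 0.184, unadjusted P = 0.0034, adjusted P = 0.0561). A gene that did not pass is thus not shown to be unchanged. Values of all 10 genes in all 7 comparisons were recomputed under each alternative.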

Other observations

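The 4 globin genes Hba-a1, Hba-a2, Hbb-bs and Hbb-bt, which mark red cells and their precursors, summed to 1141, 402 and 164 normalized counts in the DKO libraries and to between 35.9 and 182 in the other 7 libraries. The library with the highest globin sum, DKO replicate 1, also had the lowest Hamp count, 10065. In the DKO library with the next globin sum Hamp was 24945, and in the third it was 32509. In control replicates 1, 2 and 3, globin sums of 51.9, 182 and 158 stood beside Hamp counts of 29819.5, 24305 and 28744. In Nrf2 KO the sums were 144 and 106 beside Hamp counts of 48249.5 and 60139.8. In p65 KO they were 94.5 and 35.9 beside 49896 and 52073. Across genotypes the order was not kept, and no relation of the globin sum to Hamp was tested. In DKO the globin log2 fold changes against control lay between 1.51 and 2.33 and none of the 4 passed in edgeR. An unadjusted P under 0.05 was seen for 3 of them, and for 3073 of the 13641 genes tested. In DESeq2, 3 genes of the erythroid marker list passed as higher in DKO. Alas2, the erythroid heme synthesis gene that made up most of the erythroid marker sum, had mean levels of 4523 normalized counts in DKO and 3842 in control. The erythroid marker sum did not follow the globins in control, with 4710, 3395 and 3922 in replicates 1, 2 and 3. The cells that gave the Alas2 counts cannot be told from these libraries. The part of red cell RNA in the Hamp value of DKO replicate 1 was not tested.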
